A study of Cavia porcellus with 34 samples.

Results

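The genes described here encode 8 neuropeptide precursors that hypothalamic neurons release beside a fast transmitter or another hormone. They are the opioid precursors PDYN, PENK and PNOC, the tachykinin precursor TAC1, cholecystokinin (CCK), neurotensin (NTS), vasoactive intestinal peptide (VIP) and ADCYAP1, which encodes the peptide PACAP. Each was found by its gene symbol in 1 table of values per generation. All 8 have a row in F1 and in F3, of 12114 and 12068 genes. In F2 there are 7 of 12207 genes, because CCK has no row there and is not analysed there. Every gene found also passed the filter on low values, a mean of at least 10 normalized counts.

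The tissue was the paraventricular nucleus of the hypothalamus (PVN), which controls the pituitary and adrenal stress axis, taken as a 1.0 mm micropunch that may also hold adjoining hypothalamus. All animals were juvenile females of the paternal line, studied on postnatal day 40 and descended from Dunkin-Hartley guinea pigs. Pregnant F0 females received repeated courses of the synthetic glucocorticoid betamethasone (sGC) or of saline (Veh), so F1 fetuses were exposed directly, and F2 and F3 descend from F1 males, with untreated mates in each generation. Each of the F1 and F2 groups held 5 animals, and each of the 2 F3 groups held 6. The second F3 sequencing batch contributed 2 sGC animals and no Veh animal to the table, so within that batch no comparison was possible.

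Neuropeptides are made as long precursors that prohormone convertases cut in secretory granules, and they act on G protein-coupled receptors. The dynorphins from PDYN prefer the kappa receptor OPRK1, the enkephalins from PENK the delta and mu receptors OPRD1 and OPRM1, and nociceptin from PNOC its own receptor OPRL1. In the PVN, dynorphin is made by vasopressin neurons, enkephalin and PACAP take part in stress circuits, and VIP is best known from the neighbouring suprachiasmatic nucleus. TAC1 gives substance P, which acts on TACR1, and CCK acts on CCKAR and CCKBR.

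The deposited values are counts per gene that the authors normalized by residuals (RUVSeq) and rounded, called normalized counts below. Their sum per animal ran from 15.6 to 21.9 M (mega) in F1, from 15.6 to 19.4 M in F2 and from 18.7 to 19.0 M in F3. All 9 PVN marker genes passed the filter in each generation. Their summed normalized counts spanned 33982 to 230354 across the F1 animals, 73545 to 186992 in F2 and 26959 to 68485 in F3. Log2 fold changes are sGC minus Veh on log2(value + 1), which understates the change of low genes, with limma p-values adjusted over all genes of a table (Benjamini-Hochberg) and a threshold of 0.05. Each table was normalized on its own, so levels are compared only within a generation. Gene lengths were not used, so levels are not compared between genes.

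No peptide gene passed the adjusted threshold in any generation. The count was 0 of 8 in F1, against 0.657% of all 11874 genes tested. It was 0 of 7 in F2, against 0% of 11965 genes, and 0 of 8 in F3, against 0.0506% of 11866 genes. At an unadjusted p under 0.05 there were 2 of 8 in F1 (13.6% of all genes), namely ADCYAP1 and CCK, 1 of 7 in F2 (11.7%), namely PDYN, and 2 of 8 in F3 (13.1%), namely VIP and PENK. Nothing is read from these shares, which rest on 8 genes or fewer. The median log2 fold change of the peptide genes was -0.14 in F1, -0.11 in F2 and -0.05 in F3, beside 0.07, -0.08 and -0.0016 over all genes tested.

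**Figure D1:**
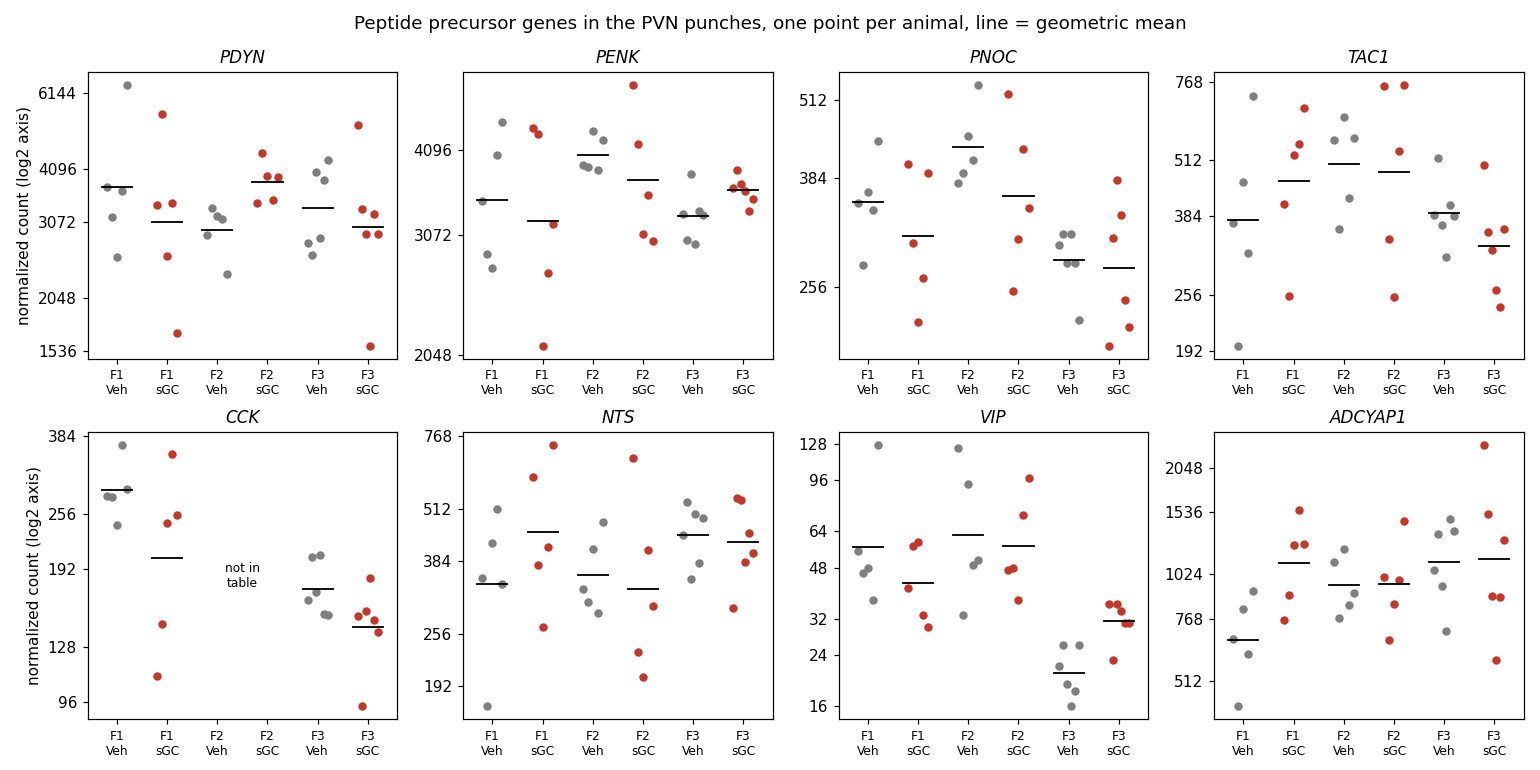
Normalized counts of the 8 peptide precursor genes by group, on log2 axes, with 1 point per animal and the geometric mean of each group as a line. In F2 the PDYN values of Veh (2330 to 3321) and sGC (3416 to 4452) do not overlap, and in F3 5 of 6 sGC animals lie above every Veh animal for VIP.

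ADCYAP1, the PACAP precursor, had the lowest p-value among the peptide genes in F1. The Veh animals had 610 (SGM3), 921 (SGM7), 670 (SGM11), 434 (SGM15) and 815 (SGM19) normalized counts. The sGC animals had 1555 (SGM4), 1250 (SGM8), 760 (SGM12), 896 (SGM16) and 1243 (SGM20). All 5 sGC animals lay above the Veh mean and 3 above every Veh animal, while SGM12 and SGM16 overlapped the highest Veh animals. The means were 690.0 ± 188 (SD, n = 5) in Veh and 1141 ± 316 (SD, n = 5) in sGC, giving a log2 fold change of 0.72 ± 0.19 (SE). The adjusted p-value from limma was 0.0787, which did not pass, and an exact two-sided permutation test of this gene alone gave p = 0.0397. Leaving out Veh animal SGM7 (adjusted p = 0.0384), sGC animal SGM12 (0.0123) or sGC animal SGM16 (0.0358) brought it past the threshold. Over all alternatives of processing and left-out animals the adjusted p ranged from 0.0123 to 0.254.

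Marker genes of the PVN and of its neighbours also differed in level between the F1 groups, though of the markers given here only LHX1 passed the adjusted threshold. Of the 9 PVN markers 8 had a log2 fold change below 0 and 5 an unadjusted p under 0.05 (13.6% of all genes). Their sums were 103327 to 230354 in Veh and 33982 to 204459 in sGC. By their means in Veh, AVP (89633) and OXT (70791) made up most of these sums, so the sums mainly follow these hormone genes. ARNT2, the marker above 0, had means of 8869 in Veh and 9883 in sGC. Of the 4 suprachiasmatic markers tested all 4 lay above 0, with sums of 731 to 1696 in Veh and 1406 to 2616 in sGC, and LHX1 passed with a log2 fold change of 1.04. Of the 6 thalamus markers 4 were lower and 1 higher at an unadjusted p under 0.05, with sums of 6683 to 23784 in Veh and 5465 to 7818 in sGC. Their part in the ADCYAP1 difference was not tested. Around the group means, the Pearson r of ADCYAP1 with the 9 PVN markers ran from -0.63 (OTP) to -0.11 (ARNT2) over 32 animals. With LHX1, the only suprachiasmatic marker for which r was computed, it was 0.61. In bulk tissue, fewer cells of a type and less RNA per cell cannot be told apart.

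In the later generations the ADCYAP1 groups overlapped almost wholly. F2 Veh animals had 773 to 1209 normalized counts (median 907) and F2 sGC animals 667 to 1450 (median 988), a log2 fold change of 0.0076 (95% confidence interval -0.38 to 0.39). F3 Veh animals had 709 to 1473 (median 1195) and F3 sGC animals 586 to 2381 (median 1087), a log2 fold change of 0.029 (-0.57 to 0.62). Within the first F3 sequencing batch the value was 0.36 (adjusted p = 0.692), which leaves out the sGC animals with 586 and 886. The F1 effect exceeded the F2 effect by 0.72 (adjusted p = 0.238) and the F3 effect by 0.70 (adjusted p = 0.306), so no difference between generations was shown.

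PDYN, the dynorphin precursor, was the peptide gene whose F2 groups did not overlap. The F2 Veh animals had 2872 (SGM22), 3321 (SGM23), 3171 (SGM27), 3127 (SGM28) and 2330 (SGM29) normalized counts. The F2 sGC animals had 3416 (SGM21), 4452 (SGM24), 3948 (SGM25), 3461 (SGM26) and 3920 (SGM30). Every sGC animal lay above every Veh animal, as for 11 of 11965 genes (0.0919%) in this direction, beside 276 (2.31%) in the other. On these unscaled values the median F2 log2 fold change of all genes was -0.08. The share in this direction alone thus understates how often the groups separated. The mean was 2964 ± 390 (SD, n = 5) in Veh and 3839 ± 423 (SD, n = 5) in sGC, giving a log2 fold change of 0.38 ± 0.10 (SE). It did not pass after adjustment (limma, p = 0.0028, adjusted p = 0.183), and the exact two-sided permutation test gave p = 0.00794, the smallest that 5 against 5 animals allow. The adjusted p stayed between 0.114 and 0.401 over all alternatives.

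Marker levels differed between the F2 groups at unadjusted p alone, since no gene passed in F2. Of the 9 PVN markers 8 had a log2 fold change above 0 and 5 an unadjusted p under 0.05 (11.7% of all genes). Their sums were 73545 to 112241 in Veh and 97908 to 186992 in sGC, mostly AVP and OXT (means of 44333 and 33905 in Veh). Around the group means, the Pearson r of PDYN with the 9 PVN markers ran from -0.10 (TRH) to 0.35 (AVP) over 32 animals. All 6 oligodendrocyte markers were lower at an unadjusted p under 0.05, with sums of 125164 to 225722 in Veh and 65936 to 106445 in sGC. Their part in the PDYN difference was not tested.

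PDYN differed little by treatment in F1 and F3, with wide spread. F1 Veh animals had 2552 to 6425 normalized counts (median 3634) and F1 sGC animals 1697 to 5509 (median 3381), a log2 fold change of -0.27 (95% confidence interval -0.75 to 0.22). F3 Veh animals had 2584 to 4300 (median 3338) and F3 sGC animals 1584 to 5172 (median 3048), a log2 fold change of -0.15 (-0.61 to 0.32). The F3 value turned to 0.057 within the first sequencing batch and with batch as a covariate. The difference between the F1 and F2 effects was -0.64 (adjusted p = 0.252).

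PENK, the enkephalin precursor, showed the narrowest spread of the peptide genes in F3. The F3 Veh animals had 3300 (SGM1), 3326 (SGM5), 3291 (SGM9), 3017 (SGM13), 3772 (SGM14) and 2979 (SGM17) normalized counts. The F3 sGC animals had 3647 (SGM2), 3475 (SGM6), 3605 (SGM10), 3832 (SGM18), 3569 and 3329 (SGM21 and SGM22 of the second batch). All 6 sGC animals lay above the Veh mean, but Veh animal SGM14 exceeded 5 of them. The log2 fold change was 0.13 ± 0.05 (SE; limma, adjusted p = 0.3), and 0.15 within the first batch (adjusted p = 0.425), within a range of adjusted p of 0.107 to 0.534 over all alternatives. In F1 PENK spanned 2744 to 4507 in Veh and 2113 to 4411 in sGC, with a log2 fold change of -0.10. In F2 it spanned 3825 to 4370 in Veh and 3011 to 5101 in sGC, with a log2 fold change of -0.12. Neither difference passed (adjusted p = 0.862 and 0.707).

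PNOC, the nociceptin precursor, had log2 fold changes of -0.18 in F1, -0.26 in F2 and -0.041 in F3, with adjusted p-values of 0.708, 0.578 and 0.935. Its normalized counts were 278 to 440 in F1 Veh and 225 to 403 in F1 sGC, 376 to 541 and 252 to 524 in F2, and 227 to 311 and 206 to 380 in F3. The lowest sGC animal lay below the lowest Veh animal in each generation. In F3 the sGC values spread to both sides, with 2 animals above and 2 below every Veh animal.

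VIP was the peptide gene with the lowest p-value in F3 and had low values there. The F3 Veh animals had 22 (SGM1), 18 (SGM5), 26 (SGM9), 26 (SGM13), 19 (SGM14) and 16 (SGM17) normalized counts. The F3 sGC animals had 36 (SGM2), 31 (SGM6), 36 (SGM10), 23 (SGM18), 34 and 31 (SGM21 and SGM22 of the second batch). Only SGM18 fell inside the Veh range. The means were 21.2 ± 4.2 (SD, n = 6) and 31.8 ± 4.9 (SD, n = 6), a log2 fold change of 0.57 ± 0.15 (SE; limma, adjusted p = 0.149). An exact two-sided permutation test, which takes the animals as exchangeable between groups, gave p = 0.00649. Within the first batch the log2 fold change was 0.55 (adjusted p = 0.379), and the adjusted p ranged from 0.0997 to 0.424 over all alternatives. The sums of the 4 suprachiasmatic markers tested, of 7 listed, overlapped between these groups (1253 to 2094 in Veh and 1381 to 2251 in sGC). Of the 4, 1 was higher and 1 lower at an unadjusted p under 0.05 (13.1% of all genes). Their part in the VIP difference was not tested.

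In the earlier generations the VIP estimates lay below 0, and each depended on single animals. In F1, Veh animals had 37 to 127 normalized counts (median 48) and sGC animals 30 to 59 (median 41), a log2 fold change of -0.41 (adjusted p = 0.597). It was -0.12 without Veh animal SGM7, which held the value of 127. In F2, Veh animals had 33 to 124 (median 51) and sGC animals 37 to 98 (median 48), a log2 fold change of -0.13 (adjusted p = 0.891). Without Veh animal SGM22, which held the value of 124, it was 0.11. The F1 effect lay 0.98 below the F3 effect, with an unadjusted p of 0.0225 and an adjusted p of 0.186.

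CCK was lower in sGC in both generations that hold it, without passing in either. The F1 Veh animals had 366 (SGM3), 291 (SGM7), 281 (SGM11), 280 (SGM15) and 242 (SGM19) normalized counts. The F1 sGC animals had 350 (SGM4), 255 (SGM8), 110 (SGM12), 144 (SGM16) and 244 (SGM20). SGM12 and SGM16 lay below every Veh animal, and the other 3 sGC animals lay within the Veh range. The log2 fold change was -0.51 ± 0.23 (SE; limma, adjusted p = 0.324), and -0.29 without SGM12. With size factors it was -0.57, with an unadjusted limma p of 0.066. An exact two-sided permutation test of CCK in F1 gave p = 0.183. In F3, Veh animals had 151 to 206 (median 167) and sGC animals 94 to 183 (median 149), of which 4 of 6 lay below every Veh animal. The F3 log2 fold change was -0.29 (95% confidence interval -0.57 to 0.0015, adjusted p = 0.382). It was -0.17 without sGC animal SGM18, which held the value of 94.

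TAC1 and NTS showed no difference beyond their spread. TAC1 had 197 to 714 normalized counts in F1 Veh and 254 to 672 in F1 sGC, 359 to 642 and 253 to 756 in F2, and 311 to 518 and 240 to 500 in F3. Its log2 fold changes were 0.29, -0.05 and -0.25, with adjusted p-values of 0.7, 0.944 and 0.535. The F1 value was 0.054 without Veh animal SGM15, which held the value of 197, and the F3 value was -0.048 within the first batch (adjusted p = 0.947). NTS had 172 to 512 in F1 Veh and 266 to 731 in F1 sGC, 288 to 478 and 202 to 679 in F2, and 348 to 533 and 297 to 545 in F3. Its log2 fold changes were 0.41, -0.11 and -0.06, with adjusted p-values of 0.51, 0.886 and 0.916. The F1 value was 0.17 without Veh animal SGM15, which held the value of 172.

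**Figure D2:**
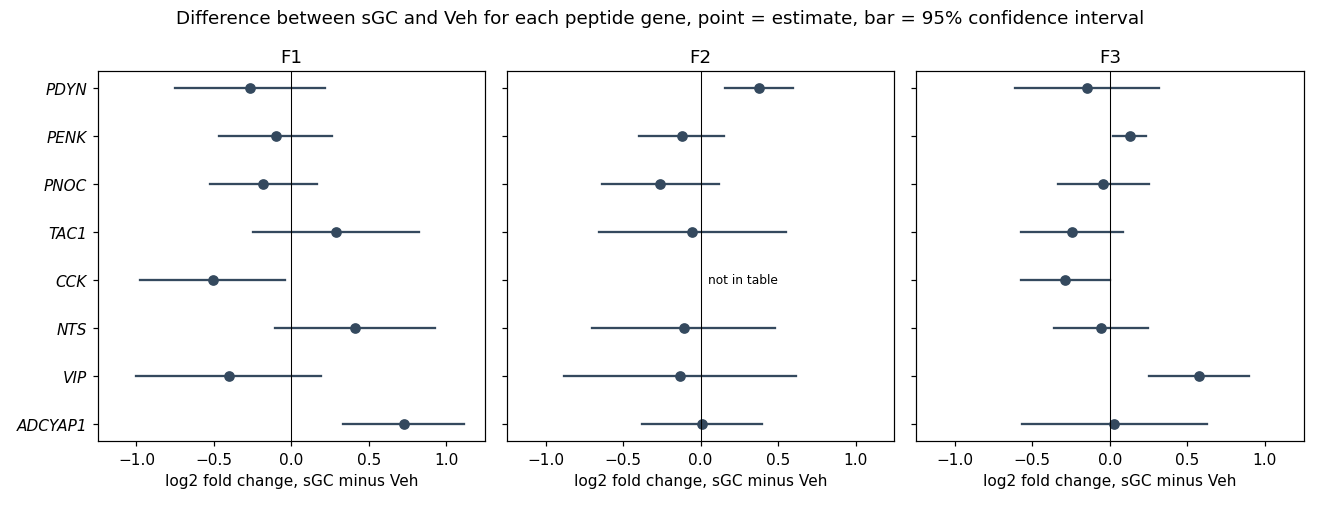
Log2 fold change of sGC against Veh for each peptide gene in F1, F2 and F3, with the limma estimate as a point and its 95% confidence interval as a bar. The intervals that leave out 0 are those of ADCYAP1 and CCK in F1, PDYN in F2, and PENK and VIP in F3, and none of these passed after adjustment over all genes. For CCK in F1 the unadjusted limma p was 0.066 with size factors.

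A direct test of each treatment effect between generations found no peptide gene that differed. Across F1 against F2, 0 of 7 passed, beside 7.64% of the 11429 genes tested in all 3 tables. Across F1 against F3, 0 of 7 passed (3.13% of all genes), and across F2 against F3, 0 of 7 (0.00875%). CCK was outside this test because it has no F2 row.

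The peptide genes varied more between animals of one group than most genes. The within-group SD on the log2 scale lay above the median of all genes for 8 of 8 in F1, 7 of 7 in F2 and 8 of 8 in F3. As a percentile of all genes it ran from 80.3 to 97.0 in F1, from 59.0 (PDYN) to 97.4 (VIP) in F2, and from 60.5 (PENK) to 99.2 (ADCYAP1) in F3. These percentiles are not matched for level. The trait was not particular to these genes. The related precursors POMC, TAC3 and GHRH lay at 99.7, 97.4 and 96.6 in F1. They lay at 88.0, 94.4 and 97.9 in F2, and at 57.6, 88.0 and 72.7 in F3. In F3 sGC, ADCYAP1 ran from 586 in SGM21 of the second batch to 2381 in SGM10, 4.06-fold.

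The variation between animals was shared by some of the peptide genes. Each value was taken as its deviation from its group mean, and all 28 pairs were correlated over 32 animals (22 for pairs with CCK). After adjustment 2 pairs passed, both positive. How many pairs of other genes would pass was not computed, here or for the counts of pairs given below. The median absolute r with genes of a mean of at least 50 was 0.37 for PNOC and TAC1. It was 0.34 for NTS and 0.23 for ADCYAP1. TAC1 and ADCYAP1 had a Pearson r of 0.74 and a Spearman rho of 0.82 over 32 animals, each with p = 1e-05, the smallest that 100000 permutations within groups can give, and adjusted p = 0.00014 and 0.00028. PNOC and NTS had an r of 0.76 (permutation p = 1e-05, adjusted p = 0.00014) and a rho of 0.74 (permutation p = 3e-05, adjusted p = 0.00042).

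Both pairs kept their sign in every generation. For TAC1 and ADCYAP1, r was 0.85 in F1, 0.78 in F2 and 0.86 in F3, and 0.75 over all animals without the 2 farthest from the TAC1 median. Both sGC animals of the second F3 batch lay below their group mean for TAC1 and for ADCYAP1, and within the first batch the F3 r was 0.84. For PNOC and NTS, r was 0.77 in F1, 0.92 in F2 and 0.53 in F3, and 0.70 without the 2 farthest from the PNOC median. With the first F3 batch only, an alternative chosen after seeing the data that leaves 30 animals, the same 2 pairs passed (r = 0.75 and 0.79, permutation p = 2e-05 and adjusted p = 0.00028 for each). Of the other 26 pairs the unadjusted p was under 0.05 for some, among them PENK and PNOC (r = 0.48, rho = 0.41, permutation p = 0.0263 and 0.0427, adjusted p = 0.199 and 0.261), and none passed. The values of one animal share a punch, a library and the residual normalization.

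The genes most like each peptide gene in this variation were found among genes with a mean of at least 50 normalized counts in every table (10541 genes for most peptides), as a description without a test. They are the highest of all these r values, taken on the unscaled values alone. The median absolute r over all genes compared was 0.22 for PDYN, 0.39 for PENK, 0.37 for PNOC and 0.37 for TAC1. It was 0.15 for CCK, 0.34 for NTS, 0.33 for VIP and 0.23 for ADCYAP1. PNOC went with SLC32A1 (r = 0.87), the vesicular GABA transporter, and with GAD2 (r = 0.86), a GABA-synthesizing enzyme. NTS went with GAD2 (r = 0.88) and SLC32A1 (r = 0.88). Within F1, F2 and F3 the r of PNOC with SLC32A1 was 0.84, 0.92 and 0.92, and that of NTS with GAD2 was 0.86, 0.97 and 0.70. The 3 GABA neuron markers, GAD1, GAD2 and SLC32A1, summed to 8414 to 19081 normalized counts in F1 Veh and 14505 to 29448 in F1 sGC, with log2 fold changes of 0.45, 0.64 and 0.49. All 3 had an unadjusted p under 0.05 (13.6% of all genes), none passed (limma, adjusted p = 0.322, 0.123 and 0.262), and with size factors only GAD2 stayed under 0.05 unadjusted.

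TAC1 went with KY (r = 0.88) and with SYT6 (r = 0.86), a synaptotagmin. ADCYAP1 went with SYT6 (r = 0.83) and with TRHR (r = 0.82), the receptor of thyrotropin-releasing hormone. SYT6 thus ranked among the 2 leading genes of both TAC1 and ADCYAP1. PENK went with FOXP4 (r = 0.89), a transcription factor, and DLG2 (r = 0.87), a synaptic scaffold. PDYN went with FAM126A (r = 0.75) and LDB2 (r = 0.73), CCK with PMP22 (r = 0.84) and the muscarinic receptor CHRM2 (r = 0.82) over 22 animals, and VIP with ASUN (r = 0.82) and CNTROB (r = 0.79). The PDYN and FAM126A value held less in F2 (r = 0.23) than in F1 (0.88) or F3 (0.81), and that of PENK and DLG2 less in F3 (0.17) than in F1 (0.95) or F2 (0.84). In F3 the value was also lower for VIP and CNTROB, at 0.27 against 0.82 in F1 and 0.92 in F2, and for CCK and PMP22, at 0.50 against 0.93 in F1.

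**Figure D3:**
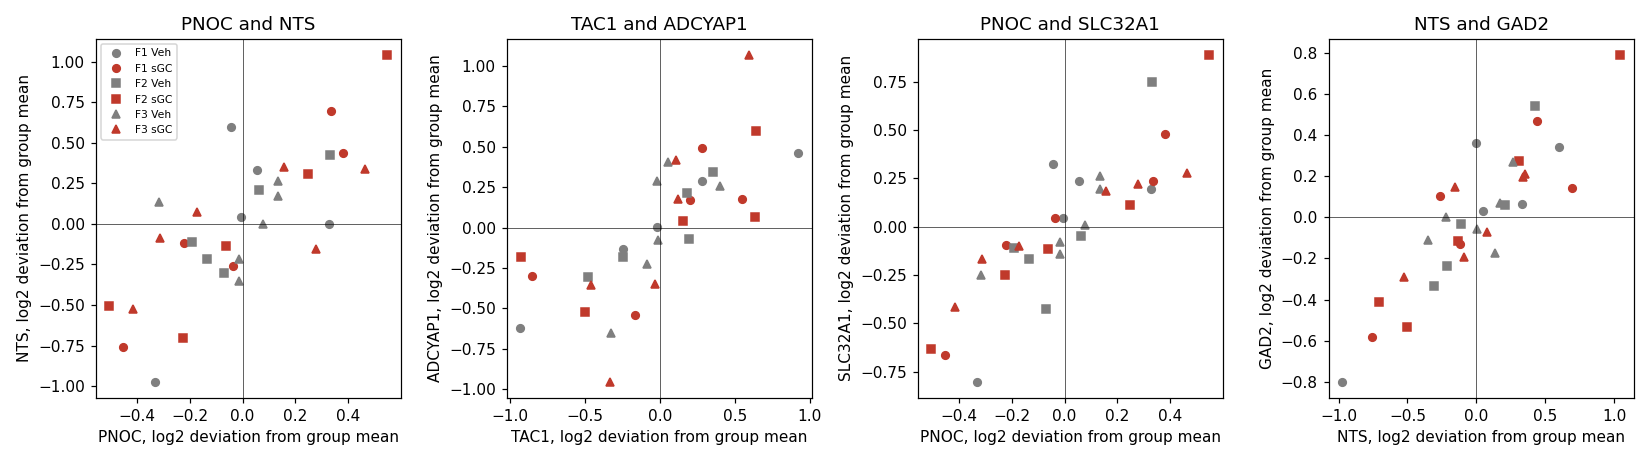
Deviations from the group mean on the log2 scale for PNOC against NTS, TAC1 against ADCYAP1, PNOC against SLC32A1 and NTS against GAD2, with 1 point per animal, shape by generation and colour by treatment. Each panel rises from lower left to upper right over the 32 animals, with r of 0.76, 0.74, 0.87 and 0.88.

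Among the receptors of these peptides, CCKAR fell in F1. Of 15 receptor genes listed, 13 were tested in F1, and 0 passed higher and 1 lower, beside 0.657% of all genes in either direction. The median log2 fold change of the 13 was 0.10, against 0.07 over all genes. CCKAR had 847 (SGM3), 942 (SGM7), 669 (SGM11), 767 (SGM15) and 390 (SGM19) normalized counts in F1 Veh. It had 322 (SGM4), 338 (SGM8), 480 (SGM12), 467 (SGM16) and 391 (SGM20) in F1 sGC. All but the lowest Veh animal, SGM19, exceeded every sGC animal. The means were 723.0 ± 212 (SD, n = 5) and 399.6 ± 72.3 (SD, n = 5), a log2 fold change of -0.81 ± 0.19 (SE; limma, adjusted p = 0.0439). The call rests on few animals and on the variance model. It was lost without any one of Veh animals SGM3, SGM7, SGM11 and SGM15 or sGC animals SGM4, SGM8 and SGM20 (adjusted p from 0.0509 to 0.139) and without a trend in the prior variance (adjusted p = 0.133), within a range of 0.00377 to 0.139 over all alternatives.

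In F2 the CCKAR estimate lay above 0. The F2 Veh animals had 263 to 515 normalized counts (median 347) and the F2 sGC animals 451 to 681 (median 498), a difference of 0.53 on the log2 scale (limma, adjusted p = 0.278). The difference between the F1 and F2 effects was -1.34 ± 0.30 (SE), and it passed (adjusted p = 0.00667, and 0.00242 with size factors). In F3 the log2 fold change was -0.37 (adjusted p = 0.428). The PVN marker sums given above also reached lower values in F1 sGC and higher values in F2 sGC, and their part in the CCKAR difference was not tested.

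The other receptor of CCK, CCKBR, had 21 to 48 normalized counts in F1 Veh (median 31) and 45 to 94 in F1 sGC (median 56). Of the sGC animals 4 of 5 lay above every Veh animal. Its log2 fold change of 0.92 ± 0.27 (SE) did not pass (limma, adjusted p = 0.11). The opioid receptors OPRK1 and OPRM1 each had an F1 log2 fold change of 0.40, and neither passed (adjusted p = 0.224 and 0.179). With median-of-ratios size factors all 3 receptors passed, CCKBR at 0.85 (adjusted p = 0.0466), OPRK1 at 0.34 (0.0458) and OPRM1 at 0.34 (0.0289), where 17.3% of all genes passed. Over all alternatives their adjusted p ranged from 0.0413 to 0.314, from 0.0458 to 0.547 and from 0.0243 to 0.391. These 3 receptors were chosen after their values were seen.

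The receptor effects were also compared between generations directly. Of 13 receptors tested, 3 differed between F1 and F2 (7.64% of all genes), namely CCKAR, CCKBR and SORT1, the sortilin that also binds neurotensin. The CCKBR effect in F1 exceeded that in F2 by 1.24 (limma, adjusted p = 0.0187), and the SORT1 effect by 0.41 (adjusted p = 0.0267), which did not pass with size factors (adjusted p = 0.0648). Between F1 and F3, 2 of 13 differed (3.13% of all genes). They were CCKBR, by 1.10 (adjusted p = 0.0486), and OPRM1, by 0.59 (adjusted p = 0.0459). Between F2 and F3, 0 of 13 did (0.00875% of all genes). On the deposited scale CCKBR, SORT1 and OPRM1 passed within no generation.

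In F2 and F3 no receptor passed (0 of 14 and 0 of 13, limma), beside 0% and 0.0506% of all genes. At an unadjusted p under 0.05 there were 2 and 3 (11.7% and 13.1% of all genes). The F3 receptor with the lowest p-value was OPRD1, the delta receptor. Its normalized counts were 172 to 204 in Veh (median 184) and 148 to 166 in sGC (median 155), and every sGC animal lay below every Veh animal (0.632% of all genes). The log2 fold change was -0.25 ± 0.06 (SE; limma, adjusted p = 0.0934). The adjusted p of OPRD1 ranged from 0.0696 to 0.424 over all alternatives. OPRM1 had an F3 log2 fold change of -0.18 (adjusted p = 0.245) and OPRL1 one of 0.09 (adjusted p = 0.138), both named after their values were seen. PENK, whose enkephalins bind OPRD1 and OPRM1, had its log2 fold change of 0.13 in the same animals.

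**Figure D4:**
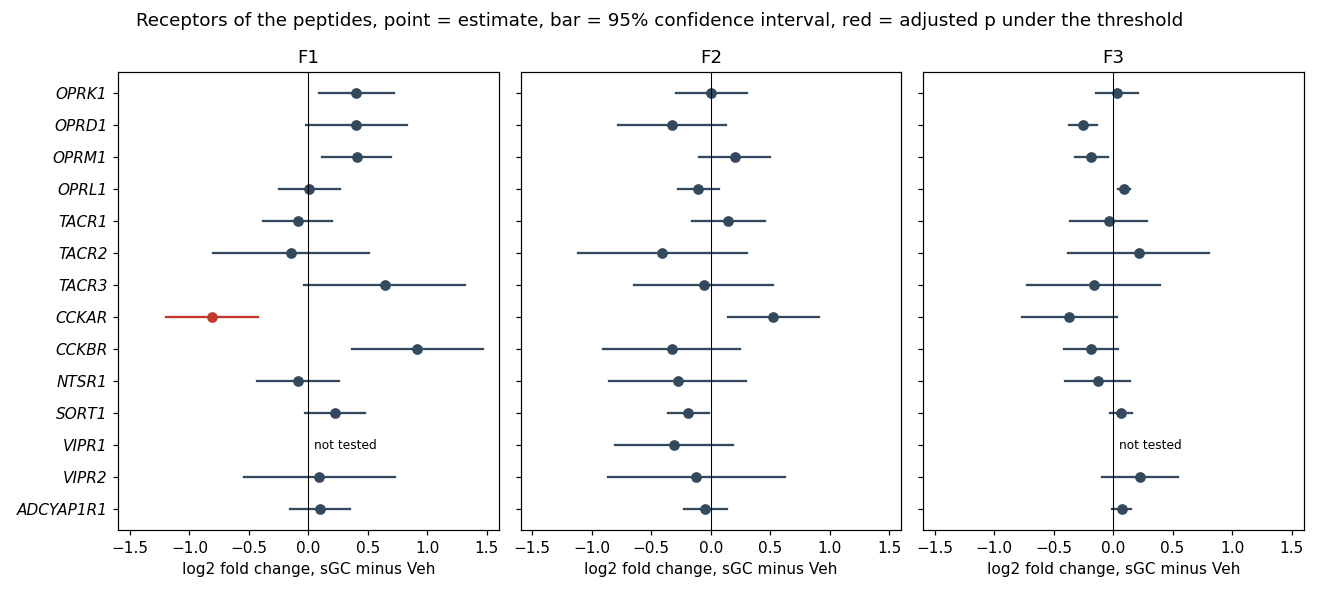
Log2 fold change of sGC against Veh for the receptors of the peptides in F1, F2 and F3, with the limma estimate as a point and the 95% confidence interval as a bar, red where the adjusted p is under the threshold. CCKAR in F1, at -0.81, is the red point, and its F2 estimate lies on the other side of 0, at 0.53.

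Of the genes that cut and finish peptide precursors, PCSK5 rose in F1. It encodes a proprotein convertase of the furin family. Of 15 such genes listed, 13 were tested in F1, with 1 higher and 0 lower, beside 0.657% of all genes in either direction. PCSK5 had 365 (SGM3), 430 (SGM7), 337 (SGM11), 253 (SGM15) and 314 (SGM19) normalized counts in F1 Veh. It had 449 (SGM4), 517 (SGM8), 665 (SGM12), 584 (SGM16) and 514 (SGM20) in F1 sGC, above every Veh animal, as for 1.79% of all genes. The means were 339.8 ± 65.2 (SD, n = 5) and 545.8 ± 82.0 (SD, n = 5), a log2 fold change of 0.69 ± 0.15 (SE; limma, adjusted p = 0.0314). Without Veh animal SGM11, SGM15 or SGM19 the adjusted p was 0.0872, 0.113 or 0.08, and without a trend in the prior variance 0.0832, within a range of 0.00419 to 0.113 over all alternatives.

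The PCSK5 log2 fold change was 0.06 in F2 and -0.09 in F3. The F1 effect exceeded the F3 effect by 0.78 ± 0.20 (SE) (adjusted p = 0.0258), and the F2 effect by 0.63, which did not pass (adjusted p = 0.0561). The convertases of the regulated granules, PCSK1 and PCSK2, and carboxypeptidase E (CPE) did not pass in F1, with log2 fold changes of 0.16, -0.17 and -0.0089 (adjusted p = 0.776, 0.669 and 0.989).

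PCSK6, a related convertase, was lower in every F2 sGC animal than in any Veh animal. The F2 Veh animals had 386 (SGM22), 337 (SGM23), 367 (SGM27), 342 (SGM28) and 477 (SGM29) normalized counts. The F2 sGC animals had 275 (SGM21), 199 (SGM24), 257 (SGM25), 227 (SGM26) and 261 (SGM30). Groups separated in this direction for 2.31% of all genes. The log2 fold change was -0.64 ± 0.12 (SE; limma, adjusted p = 0.0622), which did not pass. It passed without Veh animal SGM22 (0.0488) or SGM28 (0.0248) and with quantile normalization (0.0364), and its adjusted p ranged from 0.0248 to 0.176 over all alternatives. In F1 PCSK6 had 168 to 278 in Veh and 242 to 421 in sGC, a log2 fold change of 0.48 (adjusted p = 0.213). The difference between the F1 and F2 effects was 1.12 ± 0.20 (SE), and it passed (adjusted p = 0.000977). The F2 effect lay 0.87 below the F3 effect, which passed with size factors only (adjusted p = 0.111 and 0.0327). The oligodendrocyte marker sums given above were lower in the same F2 sGC animals, and their part in the PCSK6 difference was not tested.

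In F3 no gene of the processing list passed (0 of 14, limma). At an unadjusted p under 0.05, 1 was higher and 2 were lower (13.1% of all genes in either direction). PCSK1, which cuts most neuropeptide precursors, had the lowest p-value. Its normalized counts were 4791 to 6007 in F3 Veh (median 4971) and 3093 to 5056 in F3 sGC (median 4311), a log2 fold change of -0.32 ± 0.10 (SE; limma, adjusted p = 0.215). Only sGC animal SGM10 overlapped the Veh range. The log2 fold change was -0.24 without sGC animal SGM21 of the second batch. With batch as a covariate the adjusted p was 0.483 (limma).

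**Figure D5:**
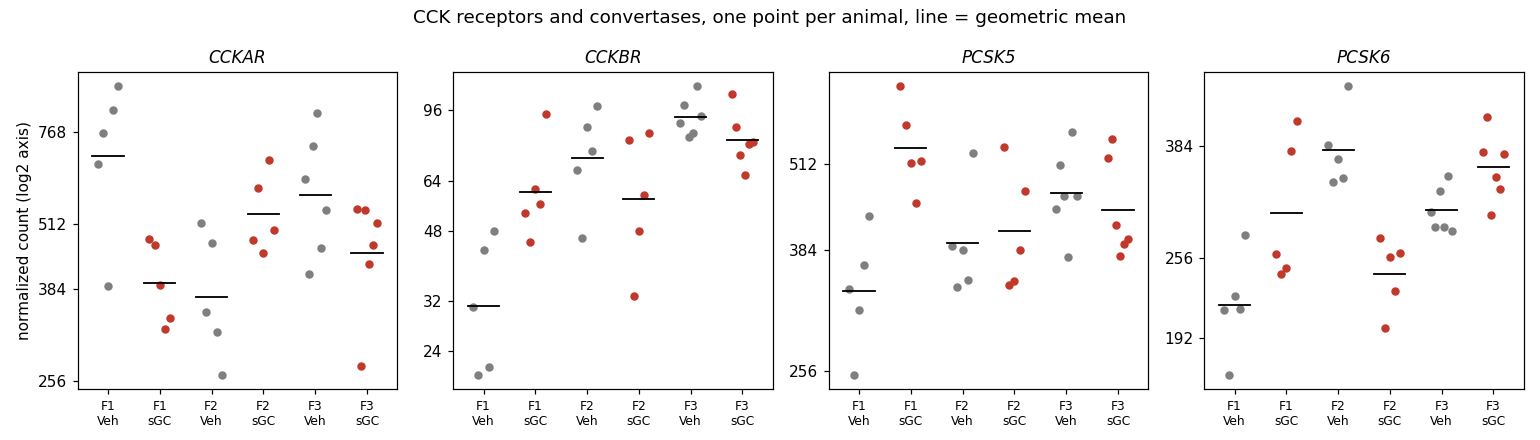
Normalized counts of CCKAR, CCKBR, PCSK5 and PCSK6 by group, on log2 axes, with 1 point per animal and the geometric mean as a line. PCSK5 in F1 (253 to 430 in Veh, 449 to 665 in sGC) and PCSK6 in F2 (337 to 477 and 199 to 275) show no overlap between treatments, and CCKAR lies lower in sGC in F1 and higher in F2.

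Peptidases that degrade these peptides showed no call on the deposited scale. Of 11 tested in F1, 11 in F2 and 10 in F3, 0 passed in each (limma). At an unadjusted p under 0.05 there was 1 in each generation (13.6%, 11.7% and 13.1% of all genes). LNPEP, a membrane aminopeptidase, had an F1 log2 fold change of 0.30 (adjusted p = 0.275), and 0.23 with size factors, where it passed (adjusted p = 0.00929, range 0.00839 to 0.561 over all alternatives). With size factors, where 17.3% of all genes passed in F1, TPP2 (0.16, adjusted p = 0.0473) and ECE2 (-0.16, adjusted p = 0.0441) passed as well, both named after their values were seen. The LNPEP effect in F1 exceeded that in F3 by 0.47 (adjusted p = 0.0567), and by 0.41 with size factors, where it passed (adjusted p = 0.0179). DPP3, which cleaves enkephalins, had an F2 log2 fold change of -0.20 (adjusted p = 0.326). NPEPPS, an aminopeptidase, had an F3 log2 fold change of 0.04 (adjusted p = 0.31), with every sGC animal above every Veh animal, as for 0.581% of all genes.

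Other ligands of the same families gave 0 of 3 in each generation (limma). At an unadjusted p under 0.05 there were 0 in F1, 0 in F2 and 1 in F3 (13.6%, 11.7% and 13.1% of all genes). That gene was TAC3, the neurokinin B precursor. The F3 Veh animals had 755 to 1134 normalized counts (median 970.5) and the F3 sGC animals 652 to 975 (median 724), a log2 fold change of -0.36 ± 0.11 (SE; limma, adjusted p = 0.191). Within the first F3 batch the adjusted p of TAC3 was 0.465 (limma). Without a call in F1 or F2, GHRH had the lowest p-value of this list there, with log2 fold changes of -0.05 and -0.11.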

How the data were processed

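RNA-seq of PVN punches was read from 1 table per generation. Per the labels and the methods of the study, the authors aligned reads to cavPor3 with TopHat2, counted them on genes, removed outlying values, corrected the F3 batches with ComBat, normalized by residuals with RUVSeq and tested with edgeR. The deposited values, treated here as a score, are these normalized counts rounded to whole numbers, so they are not raw reads and carry no counting interval. The authors' own fold changes and p-values in the tables were not used.

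Log2(value + 1) was modelled per table in limma 3.58.1 (R 4.3.3), using eBayes with a trend, unscaled, on genes averaging at least 10, with Benjamini-Hochberg adjustment over all genes and a threshold of 0.05. Differences of effects were fitted over 6 groups and 32 animals. Pair correlations used 100000 permutations within groups and adjustment over 28 pairs. Named pathway genes are those that passed and, where a list had none, its gene with the lowest p. The members, lists and rules were chosen with earlier results of these data known, and the marker correlations were chosen after seeing the data. The study states that its sample sizes count independent litters. Nothing in the labels gives the litter of each animal, so p-values measure the spread between these animals. The deposited values lacked 1, 1 and 2 directions of variation between animals in F1, F2 and F3, taken as removed by the residual normalization. The limma and permutation tests do not account for this loss, so their p-values may be too low. Permutation tests of group differences are given only for the peptide gene with the lowest p-value in each generation and for CCK in F1. Alternatives were other scalings, filters, pseudocounts, variance models, covariates and left-out animals. The procedure was tested on simulated data. Re-sequenced F3 libraries were not used here.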

Additional observations from a re-analysis of the deposited data

Results flagged for a closer look

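Of 106 groups of 5 or 6 animals examined, 4 held an animal apart from the others, fewer than the 5.3 that chance would give on average. PNOC was 227 normalized counts in F3 Veh animal SGM9, against 280 to 311 in the other 5. VIP was 23 in F3 sGC animal SGM18, against 31 to 36. CCKAR was 273 in the same animal, against 429 to 547. TAC3 was 975 in F3 sGC animal SGM2, against 652 to 758.

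Among the receptor, processing, degradation and ligand lists, treatment effects differed between F1 and F2 for 4 genes and between F1 and F3 for 3, each by a test of the difference itself in limma over all genes. The CCKAR effect in F1 minus that in F2 was -1.34 (adjusted p = 0.00667). The PCSK6 effect in F1 minus that in F2 was 1.12 (adjusted p = 0.000977). The CCKBR effect in F1 was larger than that in F2 by 1.24 (adjusted p = 0.0187) and than that in F3 by 1.10 (adjusted p = 0.0486). The SORT1 effect in F1 minus that in F2 was 0.41 (adjusted p = 0.0267). In F1 minus F3 it was 0.59 for OPRM1 (adjusted p = 0.0459) and 0.78 for PCSK5 (adjusted p = 0.0258). With size factors SORT1 no longer passed (0.28, adjusted p = 0.0648), and 2 more differences did, PCSK6 in F2 minus F3 (-0.79, adjusted p = 0.0327) and LNPEP in F1 minus F3 (0.41, adjusted p = 0.0179). CCKAR was below the Veh mean in 5 of 5 F1 sGC animals and above it in 5 of 5 F2 sGC animals, and PCSK6 the reverse.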

How the results depend on the processing

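With 5 or 6 animals a group, and values that are not raw reads, a change well inside the spread between animals was not detectable. In F1 the number of peptide genes that passed ran from 0 to 1 when each animal was left out, the 1 being ADCYAP1. It was 0 in F1, F2 and F3 under every other setting tried. The number of peptide pairs that passed was 4 with median-of-ratios size factors, where PDYN and PNOC (r = -0.53) and PENK and CCK (r = -0.80) joined, and 0 within F1, 3 within F2 and 0 within F3, which hold 10, 10 and 12 animals. The 3 within F2, of 21 pairs, were PNOC and NTS (r = 0.92, permutation adjusted p = 0.0426), PDYN and PNOC (r = -0.80, 0.0454) and VIP and ADCYAP1 (r = 0.79, 0.0468), while TAC1 and ADCYAP1 did not pass there (r = 0.78, 0.0643). Directions that turned belonged to small differences. TAC1 in F2 was 0.020 with size factors and 0.030 scaled to the sample total. PDYN in F3 was 0.057 in the first batch only and 0.057 with batch as a covariate, and PCSK5 in F3 was 0.011 and 0.011. Leaving out each animal gave -0.21 to 0.051 for PENK and -0.22 to 0.30 for GHRH in F1. In F2 it gave -0.21 to 0.18 for TAC1, -0.37 to 0.066 for NTS, -0.36 to 0.11 for VIP, -0.14 to 0.14 for ADCYAP1, -0.38 to 0.096 for GHRH and -0.042 to 0.17 for PCSK5. In F3 it gave -0.31 to 0.036 for PDYN, -0.13 to 0.042 for PNOC, -0.13 to 0.049 for NTS and -0.18 to 0.22 for ADCYAP1. The causes were not tested.

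Over all genes, the F1 count of 78 became 2058 with size factors, 1943 scaled to the total, 2084 with quantile normalization and 30 without a trend, and 15 to 474 with an animal left out. The F2 count of 0 became 42 with quantile normalization and 17 at a mean of at least 50, and 0 to 114 with an animal left out. The F3 count of 6 became 10 without a trend, 1 with the removed directions as covariates, 2 in the first batch only and 3 with batch as a covariate, and 1 to 15 with an animal left out. VIP in F3 has no value at a mean of at least 50. The labels number each animal once, but the column names of the tables count the animals of each group from 1. Chosen after seeing the data, a fit with that number as a replicate block left the count of peptide genes that passed at 0 in F1, 0 in F2 and 0 in F3. It moved the count over all genes to 146, 6 and 0, and CCKAR and PCSK5 in F1 to an adjusted p of 0.0717 and 0.0571. Between animals with the same number, r over genes ran from -0.24 to 0.31 in F1, -0.41 to 0.22 in F2 and -0.54 to 0.19 in F3. With 5 or 6 such values per generation, a pairing was neither shown nor excluded. In F1 the animals with the same number also carry neighbouring names (SGM3 and SGM4, SGM7 and SGM8, SGM11 and SGM12, SGM15 and SGM16, SGM19 and SGM20).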
